A study of Mus musculus with 15 samples.

Results

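The miR-29 family is a group of microRNAs (miRNAs) that share a seed, the bases with which a miRNA pairs with its target messages. Its members were taken by name, as every mouse array entry for the 5p or 3p arm of miR-29a, miR-29b or miR-29c. There were 6 such entries among the 696 mouse miRNAs on the array. The 3p arms are mmu-miR-29a-3p, mmu-miR-29b-3p and mmu-miR-29c-3p, and the 5p arms are mmu-miR-29a-5p, mmu-miR-29b-1-5p and mmu-miR-29c-5p. A miRNA was tested when the scanner software detected it on all arrays of at least 1 diet, which left 178 miRNAs, among them the 3 members of the 3p arm.

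The arrays hold liver RNA from 15 male mice of the strain labelled B6C57/J, 5 mice per diet and 1 array per mouse. All mice were 1 year old when the diets began and stayed on them for life. SD mice ate the AIN-93G diet ad libitum, CR mice received the AIN-93G SD diet at a 40% caloric restriction, and Met mice ate AIN-93G ad libitum with 0.1% w/w metformin, a drug for type 2 diabetes. The comparisons ask how the members and arms of the family differ between caloric restriction, metformin and the control diet.

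miR-29 represses messages for fibrillar and basement membrane collagens, elastin, fibrillin and other proteins of the extracellular matrix. In liver it is present in hepatocytes and in hepatic stellate cells, the cells that lay down collagen, and TGF-beta lowers it in activated stellate cells. Low miR-29 is known from fibrosis in liver, heart and other organs.

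The mature 3p sequences are shown because they carry the shared seed and differ between members at few positions, and the probes must tell them apart. Capitals mark the seed, bases 2 to 8 from the 5′ end, and the sequences are those of RefSeq on GRCm38.p6.
mmu-miR-29a-3p: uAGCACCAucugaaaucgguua
mmu-miR-29b-3p: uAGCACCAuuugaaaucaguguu
mmu-miR-29c-3p: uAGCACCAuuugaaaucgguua

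All 6 members on the array had a mature sequence in the RefSeq table. The seed AGCACCA was found in these 3 names and in 0 others of the 1679 mature miRNA names in that table. Positions in the following differences are counted from 1 at the 5′ end, with the base of the member named first written first. miR-29a-3p and miR-29c-3p, each 22 bases long, differ at 1 position, C10U. Over the 22 bases compared, miR-29a-3p and miR-29b-3p differ at 4 positions, C10U, G18A, U21G and A22U. miR-29b-3p, 23 bases long, and miR-29c-3p differ at 3 positions, A18G, G21U and U22A. How far a probe for 1 member binds another was not tested.

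The family comes from 4 hairpins in 2 pairs. Mir29a (chr6:31062660-31062747, minus strand) and Mir29b-1 (chr6:31063023-31063093, minus strand) lie 275 bases apart on GRCm38.p6. Mir29b-2 (chr1:195037040-195037120, plus strand) and Mir29c (chr1:195037547-195037634, plus strand) lie 426 bases apart. Mature miR-29b-3p is the same sequence from Mir29b-1 and Mir29b-2, so its level sums over the pairs, while miR-29a-3p and miR-29c-3p each mark 1 of them.

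The 5p arms are shown with their own seeds in capitals, since the 3 arms on the array share none with each other or with the 3p arms.
mmu-miR-29a-5p: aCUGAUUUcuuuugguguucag
mmu-miR-29b-1-5p: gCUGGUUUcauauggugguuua
mmu-miR-29c-5p: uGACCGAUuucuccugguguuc

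Levels are given as z-scores, the natural log of a spot's signal minus the mean over all spots of its array, divided by their standard deviation. Spots were averaged to probes and probes to miRNAs. Each member had 20 spots per array, from 4 probes for miR-29a-5p and miR-29b-1-5p and from 2 probes for the other members. The 15 arrays lay on 2 slides, with the SD mice and Met mice 1 to 3 on slide 1, and the CR mice and Met mice 4 and 5 on slide 2.

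Before the results, 3 CR arrays stood apart from the rest. The 75th percentile of the probes detected on all arrays, on the log2 scale, was 8.81, 8.20, 8.00, 8.49 and 8.83 in CR mice 1 to 5. It ran from 8.73 to 9.08 in SD mice and from 8.83 to 8.97 in Met mice. CR mice 2, 3 and 4 therefore lay below all SD and Met mice. CR mice 1 and 5 lay within the SD range and just below all Met mice, at 8.811 and 8.827 against 8.832 or more. By Agilent's total gene signal summed per array, on the log2 scale, all 5 CR mice lay below all SD mice. That sum ran from 16.44 to 17.37 in CR mice, from 17.47 to 17.90 in SD mice and from 17.31 to 17.71 in Met mice, and was lowest in CR mice 2, 3 and 4. The number of detected mouse miRNAs was 187, 167, 151, 184 and 198 in CR mice 1 to 5, against 170 to 205 in SD mice and 182 to 191 in Met mice. The number of arrays limits the precision of every comparison below.

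The 3p arms were detected on all 15 arrays. miR-29a-3p had 300 of 300 spots well above background, miR-29b-3p had 290 of 300 and miR-29c-3p had 299 of 300. The 10 dim spots of miR-29b-3p were all on the array of CR mouse 3. The geometric mean signal of miR-29a-3p ran from 758.2 to 1729 over the 15 arrays, that of miR-29b-3p from 145 to 448 and that of miR-29c-3p from 193 to 672.

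The 5p arms were not well above background in nearly all spots. miR-29a-5p was detected on 0 of 15 arrays, with 2 of 300 spots well above background. miR-29b-1-5p was detected on 1 array, of SD mouse 3, with 3 of 300 spots well above background. miR-29c-5p was detected on 4 arrays, of SD mice 1 and 3 and Met mice 1 and 5, with 7 of 300 spots well above background. Over the 3 arms, 0 detections fell in CR mice, and every z-score lay between -0.331 and -0.200. No difference or test is given for the 5p arms, and a response of this arm to diet could not be measured.

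**Figure D1:**
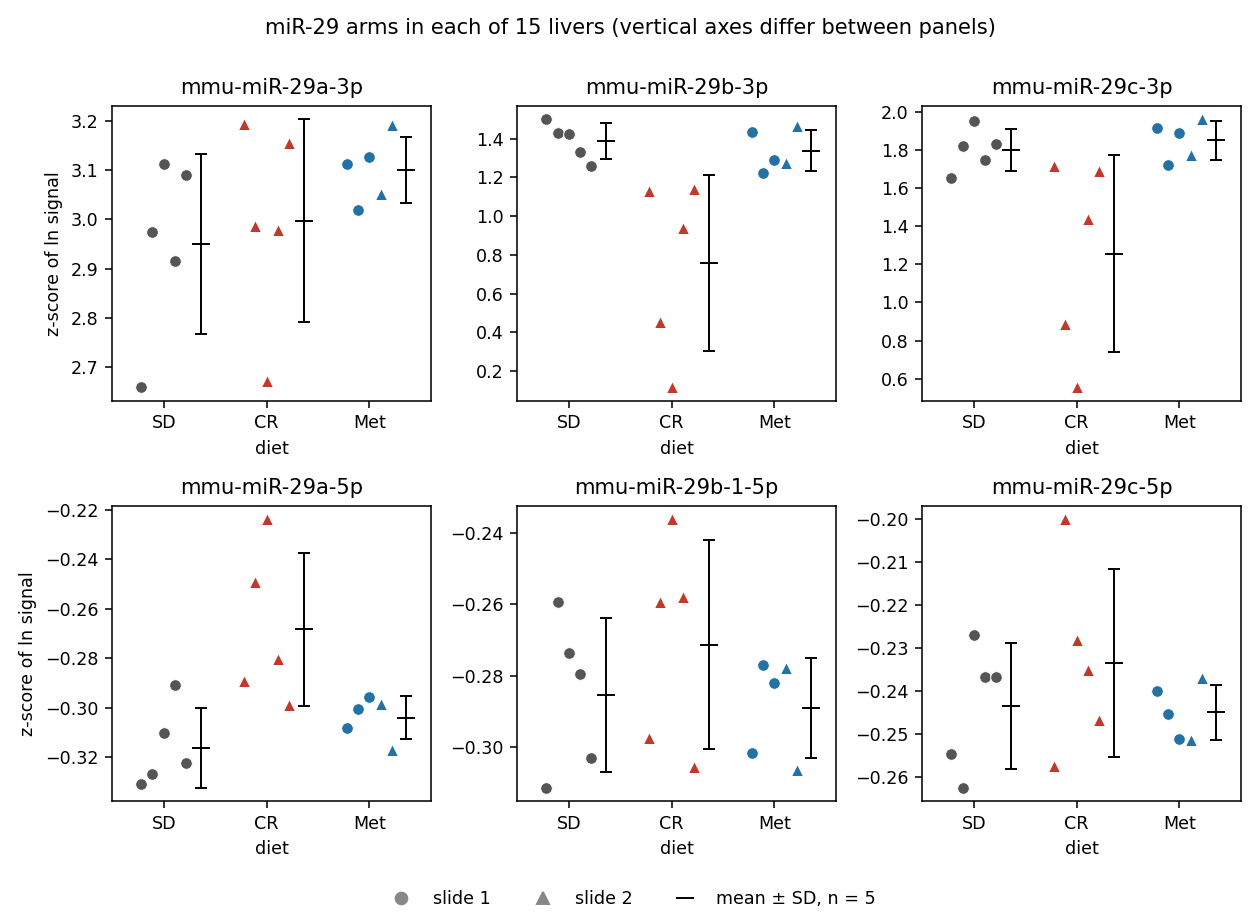
Z-scores of the 6 miR-29 arms on the array in each of 15 mice, by diet, with the mean and standard deviation (n = 5) at the side of each group and the slide as the marker. miR-29b-3p lies lower in all 5 CR mice than in any SD or Met mouse, miR-29c-3p is lowest in CR mice 2 and 3, miR-29a-3p overlaps between diets, and the 5p arms stay near -0.3 on axes that span little.

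miR-29a-3p, the member of the Mir29a hairpin, had z-scores of 2.66, 2.98, 3.11, 2.92 and 3.09 in SD mice 1 to 5. In CR mice 1 to 5 it had z-scores of 3.19, 2.99, 2.67, 2.98 and 3.15. In Met mice 1 to 5 it had z-scores of 3.11, 3.02, 3.13, 3.05 and 3.19. The diets overlapped, with SD mouse 1 and CR mouse 3 lowest, 2 CR mice above all SD mice, and 3 CR mice below all Met mice. The mean was 2.95 ± 0.182 (SD, n = 5) in SD mice, 3.00 ± 0.206 (SD, n = 5) in CR mice and 3.10 ± 0.0673 (SD, n = 5) in Met mice.

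miR-29b-3p, the member made from the hairpins of both chromosomes, had z-scores of 1.501, 1.43, 1.42, 1.33 and 1.26 in SD mice 1 to 5. In CR mice 1 to 5 it had z-scores of 1.13, 0.452, 0.115, 0.939 and 1.14. In Met mice 1 to 5 it had z-scores of 1.43, 1.22, 1.29, 1.27 and 1.47. All 5 CR mice lay below all SD and all Met mice, with CR mice 2 and 3 far below the other CR mice, and the SD and Met mice overlapped. The mean was 1.39 ± 0.0936 (SD, n = 5) in SD mice, 0.756 ± 0.455 (SD, n = 5) in CR mice and 1.34 ± 0.106 (SD, n = 5) in Met mice.

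miR-29c-3p, the member of the Mir29c hairpin, had z-scores of 1.66, 1.82, 1.95, 1.75 and 1.83 in SD mice 1 to 5. In CR mice 1 to 5 it had z-scores of 1.72, 0.886, 0.553, 1.44 and 1.69. In Met mice 1 to 5 it had z-scores of 1.92, 1.72, 1.89, 1.77 and 1.96. All 5 CR mice lay below all Met mice, CR mice 2, 3 and 4 also lay below all SD mice, and CR mice 1 and 5 overlapped with SD mice. The mean was 1.80 ± 0.110 (SD, n = 5) in SD mice, 1.26 ± 0.516 (SD, n = 5) in CR mice and 1.85 ± 0.101 (SD, n = 5) in Met mice.

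Differences between diets were tested with limma in 1 fit over the 15 arrays, and p was adjusted over the 178 tested miRNAs. The Z ratio of a miRNA is its difference in mean z-score divided by the standard deviation of such differences over all 696 mouse miRNAs. A miRNA met the criteria with p of 0.05 or less, adjusted p of 0.3 or less and a Z ratio of at least 1.5 in size. The comparisons share arrays, since CR enters 2 of them and SD and Met enter 2 each, so they are not independent of each other.

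Under caloric restriction, miR-29b-3p and miR-29c-3p were lower than on the SD diet, in the same direction under all 8 scalings. miR-29b-3p met the criteria under all 8, and miR-29c-3p under 6, the exceptions being the 75th percentile of detected probes and total gene signal. The mean z-score of miR-29b-3p fell by 0.634 (SE 0.161, n = 5 per diet), a Z ratio of -3.81 (limma adjusted p = 0.0154). That of miR-29c-3p fell by 0.546 (SE 0.182, n = 5 per diet), a Z ratio of -3.29 (limma adjusted p = 0.0365). Bulk liver RNA cannot tell fewer cells of a type from less miR-29 per cell.

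The difference of miR-29a-3p between CR and SD mice was 0.0474 (SE 0.118, 95% interval -0.203 to 0.298), a Z ratio of 0.285 (limma adjusted p = 0.796). Its direction turned with the scaling, to a Z ratio of -1.03 when arrays were scaled to the 75th percentile of all probes and to -0.852 when log signals were centered without division. It met the criteria, as higher in CR mice, with quantile normalization, at a Z ratio of 1.61. On the log2 scale its difference was 0.373 with total gene signal (95% interval 0.165 to 0.581, limma adjusted p = 0.0104) and 0.244 with the 75th percentile of detected probes (95% interval 0.0157 to 0.472, limma adjusted p = 0.0507), with Z ratios of 0.884 and 1.22 outside the criteria. The Z ratio was 1.87 without CR mice 2 and 3 with that percentile, within the criteria, and 1.88 without CR mice 2, 3 and 4 (limma adjusted p = 0.262), outside them. It also turned without SD mouse 1, to -0.150, and without CR mouse 1, to -0.00976.

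Of the 3 tested members, 2 met the criteria as lower in CR than in SD mice, beside 26 of 178 tested miRNAs (14.6%). In both directions 31 of 178 met them (17.4%), 5 as higher and 26 as lower. With the 75th percentile of detected probes the split was 110 higher and 10 lower, with total gene signal 36 and 28, with quantile normalization 25 and 17, and with z-scores over detected miRNAs 17 and 21. It was 0 and 32 with the 75th percentile of all probes and 0 and 27 with centering alone. The values of CR and SD mice did not overlap for 1 member, miR-29b-3p, and for 20 of 178 tested miRNAs (11.2%). Ordered by Z ratio from the lowest of 178, miR-29b-3p was at place 10, miR-29c-3p at 15 and miR-29a-3p at 135.

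Taking the 75th percentile of detected probes as the scale moved the median difference of the 178 tested miRNAs between CR and SD mice to 0.37 on the log2 scale, and total gene signal moved it to 0.28. The shift of an array by its percentile cancels in values relative to that median, so these do not carry that scaling. Relative to that median, miR-29b-3p differed by -0.69 with the 75th percentile, of detected as of all probes, and by -1.20 with total gene signal. Relative to it, miR-29c-3p differed by -0.63 and -0.73. Relative to it, miR-29a-3p differed by -0.13 with the 75th percentile and by 0.09 with total gene signal. The Z ratio of miR-29b-3p was -1.57 with the 75th percentile of detected probes and -2.18 with total gene signal, and it met the criteria under both. That of miR-29c-3p was -1.27 and -1.07, and it met them under neither.

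The slide moves with the difference between CR and SD mice, since no slide holds both diets and only Met mice link the slides. With the slide as a block, the Z ratio of miR-29b-3p for CR against SD mice was -3.84 (limma adjusted p = 0.257), within the criteria. That of miR-29c-3p was -3.20 (limma adjusted p = 0.282), outside them. The part of the slide in the result was not tested beyond these values.

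Without CR mice 2 and 3, the difference of miR-29b-3p between CR and SD mice went from -0.634 to -0.319, a Z ratio of -2.77 (limma adjusted p = 0.0346), within the criteria. That of miR-29c-3p went from -0.546 to -0.188, a Z ratio of -1.63 (limma adjusted p = 0.192), outside the criteria. Without CR mice 2, 3 and 4, which leaves CR mice 1 and 5, the Z ratio of miR-29b-3p was -2.12 (limma adjusted p = 0.159), within the criteria. That of miR-29c-3p was then -0.833 and outside them. These CR mice were also those with the lowest array signal, and the part of array signal in the result was not tested beyond these values.

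**Figure D2:**
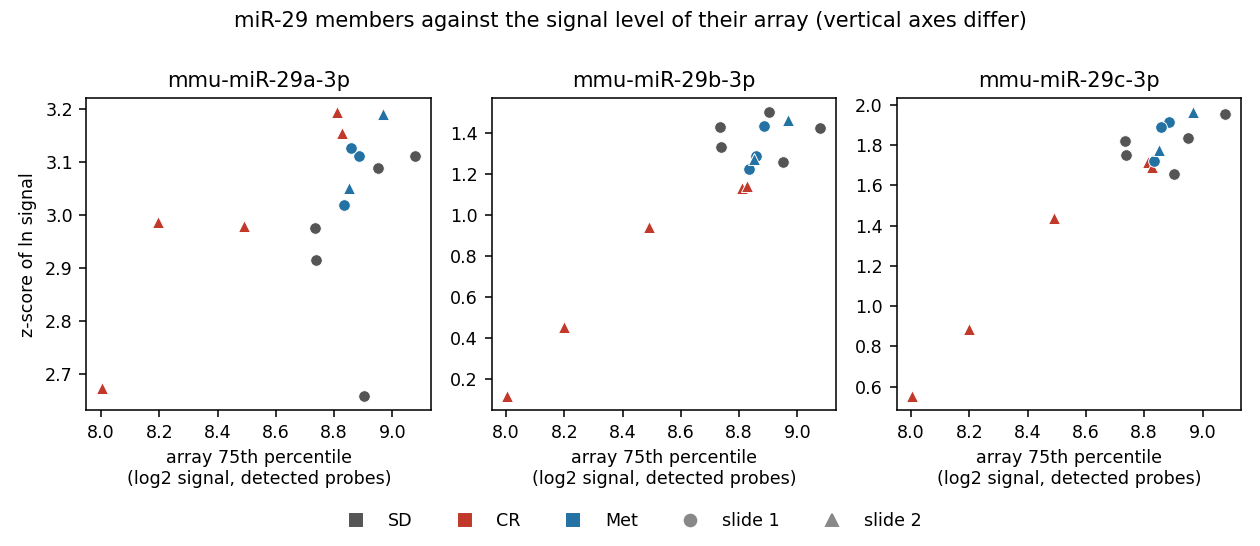
Z-scores of the 3 detected miR-29 members in each of 15 mice against the 75th percentile of the probes detected on all arrays (log2 signal) of the same array, with the diet as the colour and the slide as the marker. CR mice 2, 3 and 4 lie at 8.20, 8.00 and 8.49, left of all other mice, and have the lowest z-scores of miR-29b-3p and miR-29c-3p.

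Against metformin, miR-29b-3p and miR-29c-3p were again lower under caloric restriction by z-scores, and in direction under all 7 other scalings, with total gene signal as the exception in which miR-29c-3p did not meet the criteria. The mean z-score of miR-29b-3p fell by 0.581 (SE 0.161, n = 5 per diet) from Met to CR mice, a Z ratio of -3.75 (limma adjusted p = 0.0255). That of miR-29c-3p fell by 0.595 (SE 0.182, n = 5 per diet), a Z ratio of -3.84 (limma adjusted p = 0.0262). The difference of miR-29a-3p was -0.102 (SE 0.118, 95% interval -0.353 to 0.148), a Z ratio of -0.660 (limma adjusted p = 0.483). Its direction turned with the 75th percentile of detected probes (Z ratio 0.451), quantile normalization (0.144), z-scores over detected miRNAs (0.285) and total gene signal (0.798, limma adjusted p = 0.0218, a difference of 0.311 with a 95% interval of 0.103 to 0.519), and without CR mice 2 and 3 (0.0993).

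Of the 3 tested members, 2 met the criteria as lower in CR than in Met mice, beside 29 of 178 tested miRNAs (16.3%). In both directions 37 of 178 met them (20.8%), 8 as higher and 29 as lower. The split was 101 and 15 with the 75th percentile of detected probes, 53 and 27 with total gene signal, 22 and 26 with quantile normalization and 18 and 22 with z-scores over detected miRNAs. It was 0 and 31 with the 75th percentile of all probes and 1 and 31 with centering alone. The values of CR and Met mice did not overlap for miR-29b-3p and miR-29c-3p, and for 27 of 178 tested miRNAs (15.2%). From the lowest Z ratio of 178, miR-29c-3p was at place 13, miR-29b-3p at 15 and miR-29a-3p at 61.

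The median difference of the tested miRNAs between CR and Met mice was 0.30 on the log2 scale with the 75th percentile of detected probes and 0.25 with total gene signal. Values relative to that median again do not carry the shift by the percentile. Relative to that median, miR-29b-3p differed by -0.60 and -1.01. Relative to it, miR-29c-3p differed by -0.64 and -0.66. Relative to it, miR-29a-3p differed by -0.22 with the 75th percentile and by 0.06 with total gene signal. The Z ratio of miR-29c-3p with total gene signal was -1.05, outside the criteria, and that of miR-29b-3p was -1.93, within them.

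Slide 2 holds 5 CR and 2 Met mice, so the comparison with metformin can be made within it. There the Z ratio was -3.67 for miR-29b-3p (limma adjusted p = 0.228) and -3.65 for miR-29c-3p (limma adjusted p = 0.230), close in size to the values over both slides and outside the criteria with 2 Met mice. With the slide as a block over the 15 arrays the same Z ratios had limma adjusted p-values of 0.0811 and 0.0940, and the members met the criteria. Without CR mice 2 and 3 the Z ratio against Met mice was -2.82 for miR-29b-3p (limma adjusted p = 0.0788) and -2.51 for miR-29c-3p (limma adjusted p = 0.169), and both met the criteria, with differences in mean z-score of -0.266 and -0.237, against -0.581 and -0.595 with all mice. Without CR mice 2, 3 and 4 it was -2.09 and -1.55, and neither did.

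Between Met and SD mice no member met the criteria with limma under any scaling, and 2 of 178 tested miRNAs did (1.12%), both lower. The split turned to 9 higher and 4 lower with the pairwise test and to 6 higher and 3 lower without SD mouse 5. At an unadjusted p of 0.05 or less 0 of the 3 members passed, beside 12 of 178 tested miRNAs (6.74%), and the pairwise test of the study's methods also called 0 of the 3. The difference of miR-29a-3p was 0.150 (SE 0.118, 95% interval -0.101 to 0.401), a Z ratio of 2.46 (limma adjusted p = 0.930). The difference of miR-29b-3p was -0.0524 (SE 0.161, 95% interval -0.394 to 0.289), with a Z ratio of -0.861. The difference of miR-29c-3p was 0.0491 (SE 0.182, 95% interval -0.337 to 0.435), with a Z ratio of 0.806 that turned to -0.225 with total gene signal. Within slide 1, with 3 Met and 5 SD mice, the Z ratios were 2.54, -1.39 and 0.715 in the same order of members. The intervals are wide, and the missing calls do not show that metformin left the family unchanged.

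**Figure D3:**
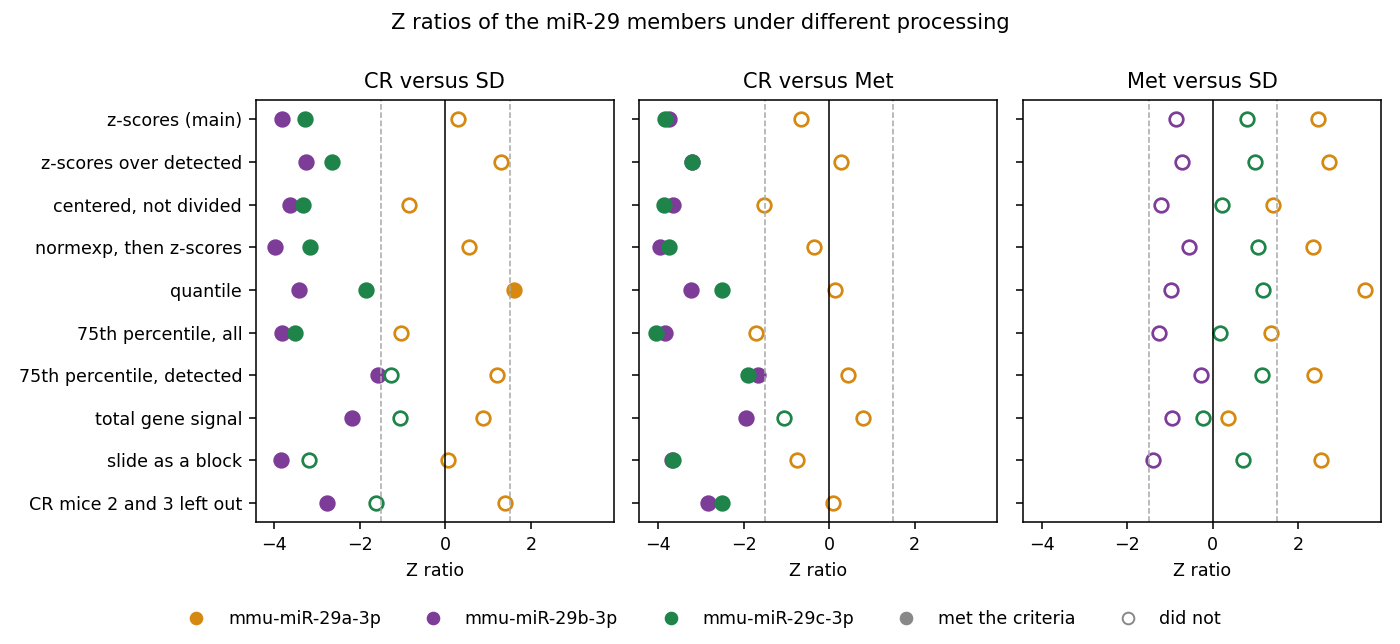
Z ratios of the 3 detected miR-29 members (horizontal axis, no unit) in each comparison under 8 scalings, with the slide as a block and without CR mice 2 and 3, with filled points where the criteria were met and dashed lines at a Z ratio of 1.5 in size. miR-29b-3p is filled in every line of the comparisons of CR mice, miR-29c-3p is open in 4 lines of CR versus SD and 1 line of CR versus Met, and miR-29a-3p lies on either side of 0 in CR versus SD and CR versus Met, depending on the scaling.

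The probes of a member moved in the same direction in the comparisons in which the member met the criteria. Between CR and SD mice the probes of miR-29b-3p differed by -0.452 and -0.816 in mean z-score. The first includes CR mouse 3, in which that probe had a signal of 124, near the median of 115 of the negative controls of the array. The probes of miR-29c-3p differed by -0.563 and -0.530. The probes of miR-29a-3p differed by -0.00372 and 0.0985, and so had opposite signs. Between CR and Met mice all 6 probes were lower in CR mice, by -0.380 and -0.783 for miR-29b-3p, -0.596 and -0.594 for miR-29c-3p, and -0.113 and -0.0922 for miR-29a-3p.

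Whether members changed by unequal amounts was tested on the difference in z-score between 2 members on the same array, with two-sided exact permutation tests over mice. There were 9 such tests, 3 pairs in 3 comparisons, with p adjusted over the 9, a threshold of 0.05 on the adjusted p, and 0.00794 as the smallest p that 5 against 5 mice can give. Such a test compares responses to diet, not levels, and shows unequal change without showing that either member did not change.

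For miR-29a-3p minus miR-29b-3p, of which the second comes from hairpins on both chromosomes, the difference was 1.16, 1.54, 1.69, 1.58 and 1.83 in SD mice 1 to 5. It was 2.06, 2.54, 2.56, 2.04 and 2.01 in CR mice 1 to 5. It was 1.68, 1.79, 1.84, 1.78 and 1.73 in Met mice 1 to 5. All 5 CR mice lay above all SD and Met mice, and the Met and SD mice overlapped. The mean was higher by 0.681 (SE 0.168) in CR than in SD mice and by 0.479 (SE 0.128) in CR than in Met mice, each with the smallest exact permutation p of 0.00794 and an adjusted p of 0.0179. The mean was higher by 0.202 (SE 0.116) in Met than in SD mice, with an exact permutation p of 0.0952 and an adjusted p of 0.143.

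For miR-29a-3p minus miR-29c-3p, which differ at 1 base, the difference was 1.003, 1.15, 1.16, 1.17 and 1.25 in SD mice 1 to 5. It was 1.48, 2.10, 2.12, 1.54 and 1.46 in CR mice 1 to 5. It was 1.20, 1.30, 1.24, 1.28 and 1.23 in Met mice 1 to 5. All 5 CR mice again lay above all other mice, and CR mice 2 and 3 were highest. The mean was higher by 0.594 (SE 0.157) in CR than in SD mice and by 0.493 (SE 0.153) in CR than in Met mice, each with an exact permutation p of 0.00794 and an adjusted p of 0.0179. The mean was higher by 0.101 (SE 0.0445) in Met than in SD mice, with an exact permutation p of 0.0317 and an adjusted p of 0.0571.

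For miR-29b-3p minus miR-29c-3p, the members that met the criteria, the difference ran from -0.574 to -0.155 in SD mice. It ran from -0.585 to -0.434 in CR mice and from -0.601 to -0.482 in Met mice. The diets overlapped. The mean differed by -0.0874 (SE 0.0790) between CR and SD mice, with an exact permutation p of 0.325 and an adjusted p of 0.366. The mean differed by 0.0141 (SE 0.0368) between CR and Met mice, with an exact permutation p of 0.698, and by -0.102 (SE 0.0762) between Met and SD mice, with an exact permutation p of 0.238.

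**Figure D4:**
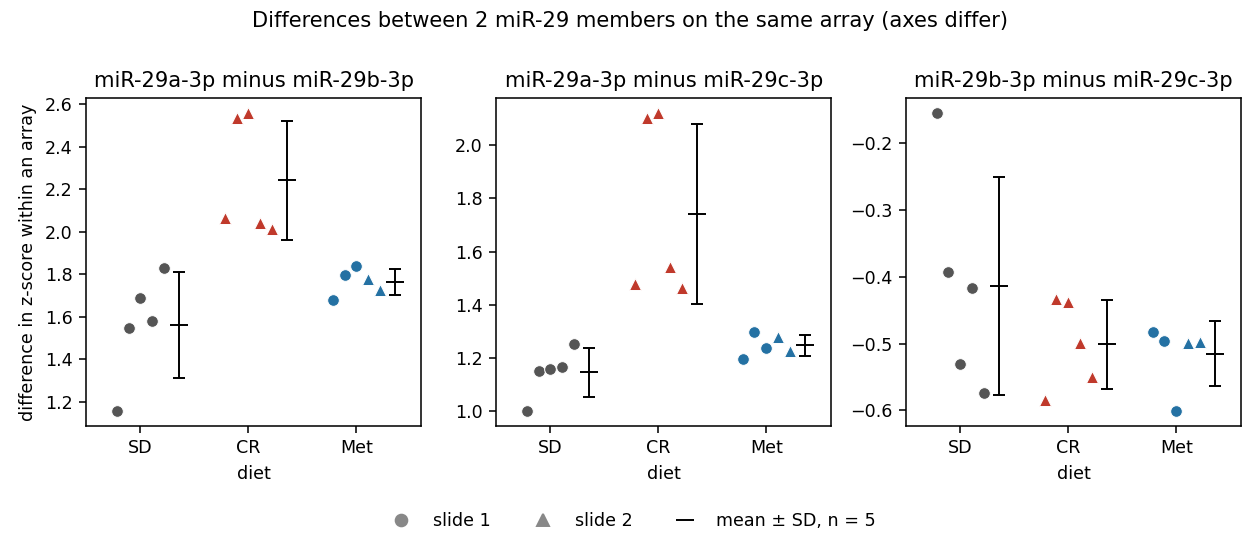
Difference in z-score between 2 miR-29 members on the same array, in each of 15 mice by diet, with the mean and standard deviation (n = 5) beside each group and the slide as the marker. miR-29a-3p minus miR-29b-3p and miR-29a-3p minus miR-29c-3p are higher in all 5 CR mice than in any SD or Met mouse, and miR-29b-3p minus miR-29c-3p overlaps between diets.

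A shift of all spots of an array cancels between 2 members, while division by the spread, quantile normalization and background subtraction can move these differences. On the log2 scale with the 75th percentile of detected probes, where no spread is divided out, miR-29a-3p minus miR-29b-3p was higher by 0.56 in CR than in SD mice and by 0.38 in CR than in Met mice. On that scale miR-29a-3p minus miR-29c-3p was higher by 0.50 and by 0.41. With total gene signal, from which background is subtracted, the values were 1.29 and 1.06 for the first pair and 0.82 and 0.72 for the second. All of these, and those with quantile normalization, passed the threshold. For miR-29b-3p minus miR-29c-3p between CR and SD mice, quantile normalization gave -0.239 (exact permutation, adjusted p = 0.0179) and total gene signal gave -0.468 (exact permutation, adjusted p = 0.0357), both past the threshold. Between CR and Met mice both turned the sign of this difference, to -0.343 with total gene signal (exact permutation, adjusted p = 0.0357), past the threshold, and to -0.103 with quantile normalization (exact permutation, adjusted p = 0.0612), not past it.

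Without CR mice 2 and 3, the 3 remaining CR mice lay above all SD and all Met mice for miR-29a-3p minus either other member. The means were then higher by 0.478 and 0.276 against SD and Met mice for miR-29b-3p, and by 0.347 and 0.247 for miR-29c-3p, with adjusted p-values between 0.0536 and 0.0643 in exact permutation tests of 3 against 5 mice. Within slide 2, the 5 CR mice lay above the 2 Met mice for the same pairs, by 0.490 and 0.488 on average. The exact permutation p was 0.0952 over the 21 arrangements, with an adjusted p of 0.286. So few arrangements, and the 56 of 3 against 5 mice, limit how small p can be. Leaving out SD mouse 1 took miR-29a-3p minus miR-29c-3p between CR and SD mice to 0.558 and an adjusted p of 0.0536, and leaving out any 1 Met mouse gave the same adjusted p against Met mice at 0.480 to 0.506, in exact permutation tests. Without SD mouse 5, the exact permutation test between Met and SD mice passed the threshold for miR-29a-3p minus miR-29b-3p, at 0.269 (adjusted p = 0.0238), and for miR-29a-3p minus miR-29c-3p, at 0.128 (adjusted p = 0.0179).

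Across the 15 arrays, 3 pairs of members were correlated, with permutation tests and p adjusted over the 3. Arrays were shuffled across diets, so a difference between diets that 2 members share enters r and p, also within a slide. Correlation within a diet was not tested. For miR-29b-3p with miR-29c-3p, Pearson's r was 0.963 (permutation p = 6.0e-05, adjusted p = 0.00018) and Spearman's rho was 0.696 (permutation p = 0.00533, adjusted p = 0.0160). Without CR mice 2 and 3, the farthest from the median, r was 0.717 (permutation p = 0.00630, adjusted p = 0.0189) and rho was 0.533 (permutation p = 0.0647, adjusted p = 0.194). Within slide 1, with 8 arrays of SD and Met mice, r was 0.0197 (exact permutation p = 0.962), and within slide 2, with 7 arrays of CR and Met mice, r was 0.997 (exact permutation p = 0.000397). Over 14 arrays, without SD mouse 1, which had the highest miR-29b-3p and the lowest miR-29c-3p of slide 1, r was 0.989 and rho was 0.916 (permutation, adjusted p = 6.0e-05 for rho). Whether r differs between the slides was not tested.

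For miR-29a-3p with miR-29c-3p, r was 0.606 (permutation p = 0.0163, adjusted p = 0.0245) and rho was 0.536 (permutation p = 0.0415, adjusted p = 0.0622), so r passed an adjusted p of 0.05 and rho did not. Within slide 1 r was 0.847 (exact permutation p = 0.00350) and within slide 2 it was 0.893 (exact permutation p = 0.00556). Without SD mouse 1 and CR mouse 3, the farthest from the median, r was 0.443 (permutation p = 0.122, adjusted p = 0.183). Without SD mouse 1 alone it was 0.767 (permutation, adjusted p = 0.00769), and without CR mouse 3 alone it was 0.321 (permutation, adjusted p = 0.302), the only mouse whose omission took r out of the threshold. It was 0.0714 with the 75th percentile of detected probes, 0.127 with quantile normalization and -0.381 with total gene signal.

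For miR-29a-3p with miR-29b-3p, r was 0.400 (permutation p = 0.130) and rho was 0.0393 (permutation p = 0.893). Within slide 1 r was -0.486 (exact permutation p = 0.224), and within slide 2 it was 0.880 (exact permutation p = 0.00933). Without SD mouse 1 and CR mouse 3 it was 0.289 (permutation p = 0.360). It was 0.701 without SD mouse 1 alone (permutation, adjusted p = 0.0141) and -0.0493 without CR mouse 3 alone. It was -0.389 with the 75th percentile of detected probes, -0.134 with quantile normalization and -0.539 with total gene signal.

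The 5 tested miRNAs outside the family whose z-scores most resembled the mean of the 3 members over 15 arrays were miR-194-5p (r = 0.972), miR-148a-3p (r = 0.971), miR-30e-5p (r = 0.963), miR-15a-5p (r = 0.961) and miR-16-5p (r = 0.960). The first 3 are abundant in liver, and miR-15a and miR-16 are a cluster that represses cell cycle messages. The median r over the 175 tested miRNAs outside the family was 0.197, and 25 of them had an r above 0.9. Within slide 1 the r of these 5 ran from 0.517 to 0.852, and within slide 2 from 0.958 to 0.985. With miR-29a-3p alone their r ran from 0.463 to 0.611, with miR-29b-3p from 0.909 to 0.972 and with miR-29c-3p from 0.968 to 0.984.

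Markers of liver cell types were counted because miR-29 differs between them. The marker lists were chosen with earlier results of these data known, and their counts only describe. Of 5 hepatocyte miRNAs, 3 met the criteria as lower in CR than in SD mice and in Met mice, miR-192-5p, miR-194-5p and miR-148a-3p, with Z ratios of -5.33, -3.05 and -4.89 against SD mice, beside 26 of 178 tested miRNAs lower than in SD mice (14.6%) and 29 lower than in Met mice (16.3%). The median Z ratio of the list was -3.05 against SD mice and -3.84 against Met mice, beside -0.0967 and -0.188 over all tested miRNAs. At an unadjusted p of 0.05 or less in limma, 4 of the 5 passed as lower in either comparison. Over all tested miRNAs, 74 of 178 (41.6%) and 80 of 178 (44.9%) passed in both directions. Besides the 3 called, miR-802-5p passed, which was not detected in CR mice 2 and 3, so its differences include values of undetected arrays. With the slide as a block 0 of the 5 met the criteria against SD mice, beside 13 of 178 tested miRNAs lower. Within slide 2 0 of the 5 did against Met mice, beside 7 of 178 lower. The Z ratios of miR-192-5p, miR-194-5p and miR-148a-3p were then -5.04, -3.50 and -4.72 with the block and -5.90, -3.99 and -4.93 within slide 2, near the values without them, so the calls were lost by p and not by size. The call of miR-194-5p against SD mice was also lost with the 75th percentile of detected probes (Z ratio -1.34), quantile normalization (-1.36) and total gene signal (-0.699), and against Met mice with total gene signal (-0.753). In either comparison 0 of the 5 met the criteria without CR mice 2, 3 and 4, beside 6 of 178 lower than in SD mice and 2 of 178 lower than in Met mice. The brightest miRNA of the list, miR-122-5p, which makes up much of the miRNA of hepatocytes, had Z ratios of 1.31 and -0.221 and did not meet the criteria.

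The summed total gene signal of the hepatocyte list, unscaled, was 19393, 19503, 30479, 21286 and 29296 in SD mice 1 to 5. It was 26577, 15269, 10572, 18445 and 28207 in CR mice 1 to 5. It was 26824, 25258, 27126, 26746 and 30644 in Met mice 1 to 5. CR mice 2, 3 and 4, in which miR-29b-3p and miR-29c-3p were lowest, had the lowest sums. The same mice had the lowest sums of 5 other lists, among them those of miRNAs that restrain and that promote fibrosis, described below, with 218, 216 and 471 for the endothelial list against 620 or more in the other mice, 71.8, 60.7 and 117 for the stellate and mesenchymal list against 171 or more, and 35.01, 18.73 and 70.003 for the leukocyte list against 108 or more. The sums were 16309, 11294 and 19271 for the restraining list against 20157 or more, and 284, 241 and 1072 for the promoting list against 1945 or more. These lists overlap, so their sums are not separate from each other. miR-122-5p, the brightest miRNA of each, and miR-194-5p are on both the hepatocyte and the restraining list. miR-199a-3p, miR-199a-5p and miR-214-3p are on both the stellate and mesenchymal list and the promoting list. Erythroid sums were 33.9 and 44.6 in CR mice 2 and 3 against 265 or more in all others. The part of hepatocyte content in the miR-29 differences was not tested.

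Of 5 stellate and mesenchymal miRNAs, 0 met the criteria in any comparison, with a median Z ratio of -0.275 against SD mice and -0.333 against Met mice. At an unadjusted p of 0.05 or less in limma, 3 of the 5 passed between CR and SD mice, miR-214-3p and miR-145a-5p as higher and miR-199a-3p as lower, beside 74 of 178 tested miRNAs in both directions (41.6%). Between CR and Met mice 2 passed, miR-214-3p as higher and miR-199a-3p as lower, beside 80 of 178 (44.9%). miR-214-3p was not detected in SD mice 4 and 5, so its difference from SD mice includes values of undetected arrays. Of 2 endothelial miRNAs, 1, miR-126-5p, passed an unadjusted p of 0.05 or less as lower against SD mice, and 2 did against Met mice. miR-126-5p was not detected in CR mice 2 and 3, so its differences include values of undetected arrays. By the criteria 0 of the 2 were lower than in SD mice, beside 26 of 178 tested miRNAs (14.6%). Against Met mice 1, miR-126-3p, met them as lower, at a Z ratio of -2.72, beside 29 of 178 (16.3%). That call was lost without any 1 of CR mice 2 and 3 and Met mice 1, 3, 4 and 5, with Z ratios from -3.07 to -2.13 when each mouse was left out in turn. It was also lost with the 75th percentile of detected probes (Z ratio -0.951), quantile normalization (-0.595), total gene signal (-0.287), z-scores over detected miRNAs (-2.03), the slide as a block (-2.98, limma adjusted p = 0.142), within slide 2 (-2.98, limma adjusted p = 0.292), and with the pairwise test, fits of 2 groups and an adjusted p of 0.05 with no Z ratio limit. The counts in limma were 0 of 3 tested of 5 leukocyte miRNAs, 0 of 1 tested of 3 erythroid miRNAs, of which 2 were on the array, and 0 of 1 tested of 5 biliary miRNAs. The tested erythroid miRNA, miR-451a, had Z ratios of -3.75 against SD mice (limma adjusted p = 0.144) and -3.42 against Met mice (limma adjusted p = 0.180). It missed the criteria by p and not by size. At an unadjusted p of 0.05 or less, 2 leukocyte miRNAs passed against SD mice and 1 against Met mice, all lower in CR mice, with values of undetected arrays among them (CR mice 2 and 3 for miR-142-3p, CR mouse 3 for miR-223-3p), and 0 erythroid and 0 biliary miRNAs did. Of the biliary markers, miR-200c-3p, miR-141-3p and miR-429-3p were detected on 0 arrays. Between Met and SD mice 0 listed miRNAs of any list met the criteria in limma, beside 2 of 178 tested miRNAs (1.12%). At an unadjusted p of 0.05 or less 1 listed miRNA passed, miR-122-5p, beside 12 of 178 (6.74%).

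The lists that follow were chosen with earlier results of these data known, and their counts only describe. Other miRNAs with a known part in fibrosis were counted beside miR-29, in a list of 15 that restrain it and a list of 7 that promote it. Of the 12 tested that restrain it, 7 were lower in CR than in SD mice by the criteria and 0 were higher, beside 26 of 178 tested miRNAs that were lower (14.6%). The 7 were miR-30a-5p, miR-30b-5p, miR-30c-5p and miR-30e-5p, which are of 1 family and so not separate observations, and miR-101a-3p, miR-19b-3p and miR-194-5p. Of these, miR-101a-3p was not detected in CR mice 2 and 3 and miR-19b-3p not in CR mouse 3, so their differences include values of undetected arrays. With only miRNAs detected on all arrays the count was 5, beside 24 of 139 lower. The same 7 were lower than in Met mice, beside 29 of 178 (16.3%). The median Z ratio of the list was -1.93 against SD mice and -2.29 against Met mice. The count against SD mice was 4 without CR mouse 2, 4 without CR mouse 3, 3 without both, 0 without CR mice 2, 3 and 4, 0 with the 75th percentile of detected probes, 3 with quantile normalization, 3 with total gene signal, 3 with the slide as a block and 4 at an adjusted p of 0.05 with no Z ratio limit. In the same order, 22, 22, 18, 6, 10, 17, 28, 13 and 33 of 178 tested miRNAs were lower. With the block 5 of the 7 lost the call through p, with Z ratios near those without it, at -1.90, -2.84, -2.36, -2.66 and -3.50 for miR-30a-5p, miR-30b-5p, miR-30c-5p, miR-19b-3p and miR-194-5p, against -1.78, -2.33, -2.09, -2.94 and -3.05, and 1 other of the list, miR-146a-5p, gained it. Against Met mice it was 4 without CR mice 2 and 3, 0 without CR mice 2, 3 and 4, 1 with the 75th percentile of detected probes, 3 with total gene signal and 2 within slide 2. In the same order, 15, 2, 15, 27 and 7 of 178 tested miRNAs were lower. Within slide 2, miR-30a-5p, miR-30b-5p, miR-30c-5p, miR-30e-5p, miR-19b-3p and miR-194-5p lost the call through p, and another of the list gained it. Their Z ratios were then -2.11, -3.02, -2.73, -2.56, -2.64 and -3.99, against -2.10, -2.79, -2.65, -2.69, -2.90 and -3.84 over both slides. With 1 mouse left out, the call of miR-30a-5p against SD mice was lost in 12 of 15 cases, all but SD mouse 1 and CR mice 1 and 5, with Z ratios from -2.13 to -1.28 over the 15. That of miR-30c-5p was lost without any 1 of SD mice 2, 3 and 5 and CR mice 2, 3 and 4, at -2.47 to -1.68 over the 15. That of miR-30b-5p was lost without CR mouse 2, at -1.90, or CR mouse 3, at -2.04. Against Met mice the call of miR-30a-5p was lost without any 1 of CR mice 2, 3 and 4 and Met mice 3 and 5, at -2.40 to -1.66 over the 15, and that of miR-30c-5p without CR mouse 2, at -2.33.

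Of the 7 miRNAs that promote fibrosis, 1 was lower in CR than in SD mice by the criteria, miR-21a-5p, which targets restraints on growth factor and SMAD signaling, with a Z ratio of -8.06, beside 26 of 178 tested miRNAs (14.6%). The count was 3 with the slide as a block, beside 13 of 178 tested miRNAs lower. It was 2 at an adjusted p of 0.05 with no Z ratio limit, beside 33 of 178, and 0 without CR mice 2, 3 and 4, beside 6 of 178. Against Met mice 2 were lower, beside 29 of 178 (16.3%), miR-21a-5p with a Z ratio of -8.43 and miR-34a-5p, which p53 induces, with a Z ratio of -1.70. Within slide 2 the value for miR-21a-5p was -8.24 (limma adjusted p = 0.228), outside the criteria. miR-34a-5p did not meet the criteria without CR mouse 5 or without Met mouse 1, each at -1.46, or with z-scores over detected miRNAs, at -1.24, and turned to 0.373 with the 75th percentile of detected probes. The median Z ratio of the list was -0.275 against SD mice and -0.333 against Met mice. At an unadjusted p of 0.05 or less in limma, 4 of the 7 passed in either comparison, 3 as lower and 1, miR-214-3p, as higher. Over all tested miRNAs, 74 of 178 (41.6%) and 80 of 178 (44.9%) passed in both directions. Collagen messages were not measured on these arrays.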

How the data were processed

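Liver RNA was measured on 1-color Agilent arrays, 1 per mouse. The authors deposited the scanner output, with an intensity per spot that is linear and not normalized. Per the file headers, other deposited columns are flags for detection, background, outliers and saturation. The authors also deposited a score per spot, which matched, to within 0.0005, z-scores recomputed here from natural logs of median signals of all 14635 spots. Outlier spots were left out. Tests used limma 3.58.1 (lmFit and eBayes with a trend) in R 4.3.3, after a check on simulated data. The simulated arrays had independent noise, without slides or low array signal, so the check does not cover these. Python 3.11.15, numpy 2.4.6 and pandas 2.3.3 gave the permutation tests. The number of arrays limits precision.

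Alternatives replaced the z-scores with log2 signals minus each array's 75th percentile over the probes of miRNAs detected on all arrays (139 miRNAs) or over all probes, with quantile normalization, centering without division, z-scores taken over detected miRNAs, normexp with an offset of 50, and Agilent's total gene signal. They also changed the filter, the treatment of outliers and probes, the test, the blocks and the mice.

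The rule for miRNAs that may be named took the members, the listed cell type and fibrosis miRNAs, and the 5 with the highest correlation with the members' mean. Many listed miRNAs without a call are given only in counts and medians. The members and lists were chosen with earlier results of these data known. Names in the array design can be old, and miR-126-3p, miR-126-5p and miR-142-3p stand for the listed miR-126a-3p, miR-126a-5p and miR-142a-3p. 1 listed miRNA, miR-486a-5p, was not found on the array.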

Additional observations from a re-analysis of the deposited data

Results flagged for a closer look

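The difference between miR-29b-3p and miR-29c-3p in Met mouse 3 was -0.601 in z-score, while the other 4 Met mice lay between -0.499 and -0.482. The gap to the nearest of them was 0.854 of the range of the 5 mice, above the limit of 0.71 for 5 samples. It was the only such value among 39 groups of 5 mice looked at, and chance flags about 1 in 20 groups. Without this mouse the mean difference between CR and Met mice turned from 0.0141 to -0.00722, and neither value passed its test.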

How the results depend on the processing

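Of 1646 values recomputed under an alternative, 1420 kept their direction and their side of the threshold (for a count, stayed within 1.5 times the reported one), as did the Z ratio of miR-29b-3p between CR and SD mice in 35 of 35 alternatives (-4.53 to -1.51). Not all alternatives could move a Z ratio. A change of test, filter or replicate block, or leaving out a Met mouse, can move only p between CR and SD mice. The deposited scores are nearly the same values as the z-scores. Alternatives that leave out CR mice 2 and 3 or 2, 3 and 4, all those of the correlations, of the list counts and of the Z ratios of miRNAs outside the family, and pair tests within 1 slide were chosen after seeing the data. The cause of a change was not tested, except that leaving out mice leaves fewer arrays.

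miRNAs meeting the criteria between CR and SD mice numbered 120 with the 75th percentile of detected probes, 64 with total gene signal, 55 with an adjusted p of 0.05 and no Z ratio limit, 17 with the slide as a block and 15 without CR mice 2, 3 and 4. Between CR and Met mice they numbered 116, 80, 61, 12 within 1 slide, 18 without CR mice 2 and 3 and 3 without CR mice 2, 3 and 4. Between Met and SD mice they numbered 0 with the 75th percentile of detected probes, z-scores over detected miRNAs, total gene signal, the slide as a block and arrays of 1 slide. They numbered 1 with quantile normalization, with no filter, and with an adjusted p of 0.05 and no Z ratio limit. They numbered 13 with the pairwise z-test, 4 with fits of 2 groups, and 1 to 9 with 1 mouse left out, 9 without SD mouse 5.

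The Z ratio of miR-29a-3p between CR and SD mice was -1.03 (75th percentile of all probes), -0.852 (centering), 1.61 (quantile), 1.87 (without CR mice 2 and 3, 75th percentile of detected probes) and -0.150 to 0.904 with 1 mouse left out. Between CR and Met mice it was 0.451 (75th percentile of detected probes), 0.144 (quantile), 0.285 (z-scores over detected), 0.798 (total gene signal), 0.0993 (without CR mice 2 and 3), 0.829 (the same with the 75th percentile) and 0.779 (without CR mice 2, 3 and 4). That of miR-29b-3p between CR and Met mice was -3.67 (1 slide) and -2.09 (without CR mice 2, 3 and 4).

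That of miR-29c-3p between CR and SD mice lost its call at -1.27 (75th percentile of detected probes), -1.07 (total gene signal), -3.20 (slide block), -1.63 (without CR mice 2 and 3), -0.581 (the same with the 75th percentile) and -0.833 (without CR mice 2, 3 and 4). Between CR and Met mice it did at -1.05 (total gene signal), -3.65 (1 slide), -1.52 (without CR mice 2 and 3, 75th percentile) and -1.55 (without CR mice 2, 3 and 4), and between Met and SD mice it was -0.225 with total gene signal. miR-30a-5p turned to 0.135 (CR versus SD, quantile) and 0.134 (CR versus Met, total gene signal), and miR-34a-5p to 0.373.

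Of the differences within an array, miR-29a-3p minus miR-29b-3p was 0.478 and 0.276 without CR mice 2 and 3 (CR versus SD, CR versus Met), 0.490 within 1 slide and 0.101 to 0.269 for Met versus SD with 1 mouse left out. miR-29a-3p minus miR-29c-3p was 0.347 and 0.247 without CR mice 2 and 3, 0.488 within 1 slide, and with 1 mouse left out 0.499 to 0.663 (CR versus SD), 0.398 to 0.563 (CR versus Met) and 0.0646 to 0.128 (Met versus SD). miR-29b-3p minus miR-29c-3p was -0.239 (quantile) and -0.468 (total gene signal) for CR versus SD, and for CR versus Met -0.103, -0.343 (past the threshold), -0.0292 (without CR mice 2 and 3), -0.00243 (1 slide) and -0.00722 to 0.0350 with 1 mouse left out.

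The correlation of miR-29a-3p with miR-29b-3p was -0.389 (75th percentile), -0.134 (quantile), -0.539 (total gene signal) and -0.0493 to 0.701 with 1 mouse left out. With miR-29c-3p it was 0.0714, 0.127, -0.381 and 0.321 to 0.767.

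Mice share replicate numbers, but these do not pair them. Over 15 pairs of mice with the same number, the correlation of deviations ran from -0.562 to 0.714 (median -0.115), and 4 were over 0.1. With the replicate block 32, 37 and 2 miRNAs met the criteria in CR versus SD, CR versus Met and Met versus SD. No call of a member changed. Each number occurs in 1 mouse per diet, so this block cannot move a Z ratio (-3.81 and -3.29 for miR-29b-3p and miR-29c-3p against SD mice). It can move only p.

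The limits are 5 mice per diet, slides that separate CR from SD mice, low array signal in CR mice, lowest on 3 arrays, and 5p arms not well above background. By summed total gene signal all 5 CR arrays lay below all SD arrays.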
